A study of Mus musculus with 2 samples.

Results

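Trpv3, Trpv4, Trpv6, Piezo1 and Aqp3 encode channels of the cell membrane, and their transcripts were followed here through the stages of the IFE (interfollicular epidermis) and through the other cells of newborn mouse epidermis. They were found by their symbols in the gene lists of both libraries and are 5 of the 27998 genes counted. The data are single-cell RNA sequencing of the epidermis of 2 male C57BL/6J mice at postnatal day 0, both Chrm3 KO, a knockout of the gene for an acetylcholine receptor of the muscarinic type, named KO mouse 1 and KO mouse 2, each with a library of its own. Every cell described therefore carries the same genotype. WT libraries were not analysed here, so no effect of the KO on the 5 genes was tested. The epidermis was lifted from the dermis after a night in separation buffer, filtered, and cleared of dead cells with a kit before the libraries were made, so that the data hold the cells that survived these steps.

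The 5 channels do different work in skin. TRPV3 and TRPV4 are cation channels that open to warmth, and TRPV4 also to swelling of the cell. TRPV3 in KCs (keratinocytes) is known to work together with the EGF receptor and its ligand TGF-α in hair shape and barrier formation. TRPV6 is a calcium-selective channel best known from intestine and placenta, where the vitamin D receptor raises its transcription. PIEZO1 is a cation channel that opens when the membrane is stretched. AQP3 carries water and glycerol and is the main aquaporin of the epidermis.

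By the GENCODE M21 annotation of GRCm38 (mm10), all 5 are protein-coding genes. Trpv3 lies at chr11:73267388-73300363 on the plus strand. The others lie on the minus strand, Trpv4 at chr5:114622152-114658421, Trpv6 at chr6:41620624-41636405, Piezo1 at chr8:122481698-122551329 and Aqp3 at chr4:41092722-41098183. Piezo1 is overlapped by Ctu2 and Gm20388 on the opposite strand and by the small nuclear RNA gene Gm26497 on its own strand, and whether reads were counted by strand is not given in the sources used here, so its counts are less certain than those of the other 4, which overlap no annotated gene.

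The stretches just before the starts of Aqp3, Trpv3 and Trpv4 are shown because these 3 genes separate the IFE stages below. They are RefSeq promoter sequences on GRCm38.p6, written 5′ to 3′ along the strand of the gene and ending at the base before the annotated gene. The Aqp3 stretch is chr4:41098184-41098433 (250 bases, 64.0% G or C), the Trpv3 stretch is chr11:73267270-73267387 (118 bases, 46.6% G or C, cut short where the GENCODE gene begins), and the Trpv4 stretch is chr5:114658422-114658671 (250 bases, 72.0% G or C). Capitals mark matches on either strand to any of 4 motifs, AP-1 (TGANTCA), GRHL (AACNNGTT), the TATA box (TATAAA) and the hexamer of nuclear receptors (AGGTCA).
Aqp3: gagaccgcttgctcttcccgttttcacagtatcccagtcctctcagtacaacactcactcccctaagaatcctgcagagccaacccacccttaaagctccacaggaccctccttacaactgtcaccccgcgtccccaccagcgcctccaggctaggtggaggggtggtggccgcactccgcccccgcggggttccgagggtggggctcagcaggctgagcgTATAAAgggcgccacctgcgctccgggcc
Trpv3: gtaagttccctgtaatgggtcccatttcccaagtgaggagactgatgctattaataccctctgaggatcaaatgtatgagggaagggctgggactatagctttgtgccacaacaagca
Trpv4: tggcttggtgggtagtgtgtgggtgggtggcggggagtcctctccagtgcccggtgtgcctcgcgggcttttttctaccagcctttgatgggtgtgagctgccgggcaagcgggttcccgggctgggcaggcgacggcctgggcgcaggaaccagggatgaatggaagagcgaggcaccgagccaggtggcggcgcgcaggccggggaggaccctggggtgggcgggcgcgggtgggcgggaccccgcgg
The Aqp3 stretch holds 1 TATAAA, which starts 29 bases before the gene. The Trpv3 and Trpv4 stretches hold none of the 4 motifs. Of the remaining genes, Piezo1 has 1 TATAAA at 24 bases before its start, and Trpv6 has 2 matches to AGGTCA, starting 191 and 165 bases before its start. Over the 250 bases before the starts of 32851 mouse genes, TATAAA was found in 12.4%, AGGTCA in 14.0%, AP-1 in 6.75% and GRHL in 3.64%. A match is a match of letters only.

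After cells with 900 to 7700 detected genes and under 10% mitochondrial UMIs (unique molecular identifiers, each 1 counted molecule) were kept, KO mouse 1 gave 7607 cells and KO mouse 2 gave 11881, with a median of 10480 and 10577 UMIs per cell. The libraries share 127 barcodes, 34 of them among the kept cells, and which of these stand for the same droplet was not tested. Chrm3 itself gave 13 and 19 UMIs in the kept cells, or 0.137 and 0.128 CPM (counts scaled to the same total in every group of cells), which does not check the KO since no WT library stands beside it. IFE stages were named from marker genes that exclude the 5 channels. Krt5, the basal keratin, was at 9001 and 9264 CPM in basal 1 and at 401 and 807 in differentiated KCs, while the suprabasal keratin Krt10 was at 30769 and 28557 CPM in differentiated KCs and between 498 and 1029 in the resting basal subtypes. The terminally differentiated KCs carried the envelope gene Lor at 17897 and 15104 CPM, but they were only 44 and 54 cells with 309937 and 561315 UMIs in sum, against 4031952 to 8208332 in every other IFE sum. The same sums held Mki67, a gene of dividing cells, at 261 and 192 CPM, and all 7 melanocyte markers at 481 and 340 CPM in sum, against 4.19 and 90.1 in differentiated KCs. Whether these transcripts came from other cells was not tested, nor was their part in the terminally differentiated values.

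Among IFE stages, 12 of the 35 tests of the 5 genes passed, and each gene had its own course. In transition against resting basal KCs (the mean of basal 1 and basal 2), 1 of the 5 genes was called, where 28.5% of all genes tested were. Differentiated against resting basal KCs gave 2 calls beside 59.7% of all genes, and differentiated against transition KCs 1 call beside 31.2%. Terminally differentiated against differentiated KCs gave 2 calls beside 32.6%. Within the basal layer, 3 genes were called in proliferating against resting basal KCs beside 33.2%, 2 in basal aberrant against resting basal KCs beside 16.4%, and 1 in basal 2 against basal 1 beside 10.2%. With so few genes these counts say little about the group as a whole, and the values of each gene carry the description. A call here is an adjusted p under 0.05 in edgeR's quasi-likelihood test, fitted to UMI sums per mouse and stage and adjusted over all 11646 genes tested. The p-values measure the spread between the same stage in 2 animals.

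**Figure D1:**
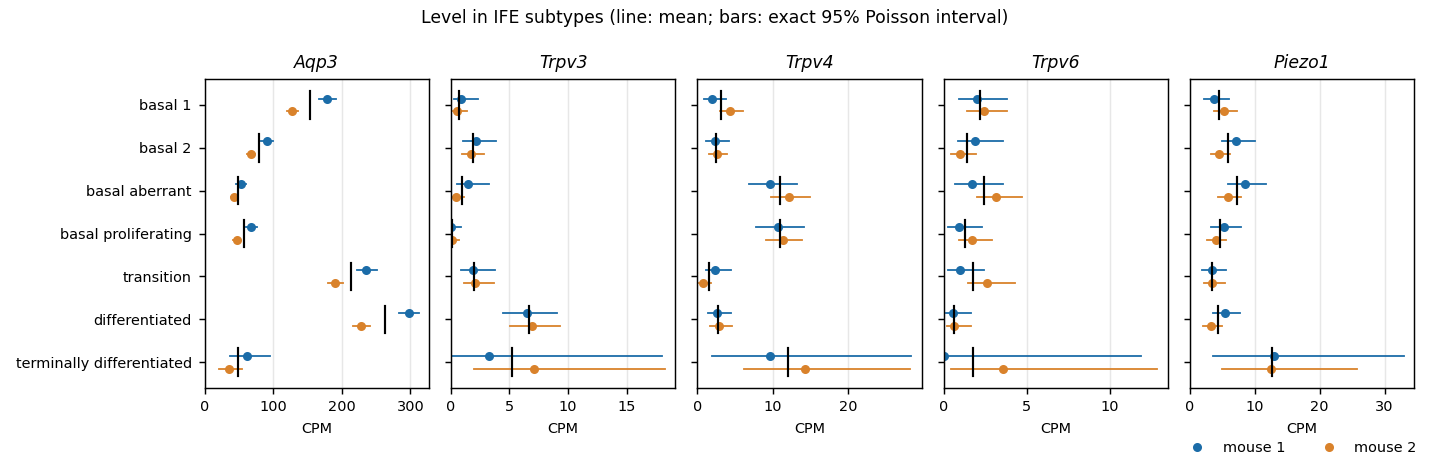
Level of each of the 5 genes (CPM) in the 7 named IFE subtypes, with 1 point per KO mouse, a line at their mean and bars for the exact 95% Poisson interval of the count. Aqp3 and Trpv3 have their highest levels of the well-sampled subtypes in differentiated KCs, Trpv4 in basal proliferating and basal aberrant KCs, and Trpv6 and Piezo1 show no such step.

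Aqp3, the water and glycerol channel, was highest in differentiated and transition KCs and low in cycling, aberrant and terminally differentiated KCs. In KO mouse 1 and KO mouse 2 it was at 298 and 228 CPM in differentiated KCs (263 ± 48.9, SD, n = 2), at 236 and 191 CPM in transition KCs (213 ± 32.1), and at 179 and 128 CPM in basal 1 (154 ± 36.3). Basal 2 held 90.6 and 67.0 CPM, proliferating KCs 67.8 and 46.8, and aberrant KCs 53.3 and 42.9. The mice overlap between differentiated and transition KCs, while transition lay above basal 1 and basal 1 above basal 2 in every pairing of the mice. Below basal 2 the neighbours in this order overlap.

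The tests follow these steps. Against resting basal KCs, Aqp3 rose by 1.01 ± 0.17 on the log2 scale in transition (SE, adjusted p = 0.000328) and by 1.47 ± 0.16 in differentiated KCs (adjusted p = 1.71e-06). It fell in proliferating KCs (log2 fold change −1.08 ± 0.19, adjusted p = 0.000452) and in aberrant KCs (−1.33 ± 0.19, adjusted p = 0.000196). The basal layer was itself uneven, with basal 2 below basal 1 (−1.06 ± 0.20, adjusted p = 0.00373). Between transition and differentiated KCs the difference of 0.46 ± 0.19 missed the threshold (adjusted p = 0.0878), and it passed with the mouse as a block (0.45, adjusted p = 1.66e-06).

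At the last step Aqp3 fell steeply, to 61.3 and 35.6 CPM in terminally differentiated KCs (log2 fold change −2.91 ± 0.33 against differentiated KCs, adjusted p = 8.49e-06). This level rests on 19 and 20 UMIs. Without predicted doublets it was 28.6 and 35.0 CPM. At least 1 Aqp3 UMI was found in 92.7% and 89.6% of differentiated KCs, whose median depth was 20274 and 18801 UMIs, against 8.24% and 9.08% of melanocyte-like cells with 8786 and 9667 UMIs, which serve as a background for free RNA in the droplets. Thinned to 3000 UMIs per cell the shares were 53.5% and 50.9% against 3.54% and 2.37%.

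Trpv3, the warm-sensing channel tied to EGF receptor signalling, was a gene of the differentiated layer. It was at 6.47 and 6.92 CPM in differentiated KCs (6.70 ± 0.314, SD, n = 2, from 34 and 43 UMIs), against 1.92 and 2.08 CPM in transition KCs, 2.10 and 1.71 in basal 2 and 0.887 and 0.539 in basal 1. Both mice lay above every value of those 3 stages. Aberrant KCs held 1.49 and 0.395 CPM. Trpv3 rose by 2.75 ± 0.34 on the log2 scale from resting basal to differentiated KCs (adjusted p = 4.32e-06) and by 1.87 ± 0.38 from transition to differentiated KCs (adjusted p = 0.00151). The earlier step from resting basal to transition was 0.88 ± 0.45 (adjusted p = 0.168). Aqp3 passed at that earlier step, and the difference between the 2 genes in it was not itself tested.

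Trpv3 was near 0 in the KCs named proliferating. There it gave 0 UMIs in KO mouse 1 and 1 UMI in KO mouse 2, although these cells had a median of 16192 and 16008 UMIs. An IFE cluster without a stage name held Trpv3 at 0.589 and 1.63 CPM, within the range of resting basal KCs. That cluster was led by Cdkn3, Cenpa and Hist1h2bc, and its leading marker list was that of dividing cells. Pooled over the mice, the resting basal level was 16.1 times that of proliferating KCs, with a 95% interval for counting error alone of 2.7 to 657 (adjusted p = 0.00473 in the fit). In terminally differentiated KCs it was at 3.23 and 7.13 CPM from 1 and 4 UMIs, a depth at which no step from differentiated KCs was detectable (−0.59 ± 0.63, adjusted p = 0.526). A UMI of Trpv3 was found in 14.2% and 13.4% of differentiated KCs, against 0.229% and 0.275% of melanocyte-like cells at the depths given above.

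Much of the Trpv3 signal lay outside the kept cells. Barcodes at or over 10% mitochondrial UMIs, left out of every comparison, held 54.9% and 47.9% of all Trpv3 UMIs but only 9.36% and 7.44% of all UMIs of the 2 libraries. Their Trpv3 level was 24.9 and 17.4 CPM, against 1.99 and 1.42 in the kept cells. The same barcodes held 33.7% and 36.7% of all Krt10 UMIs. The stage values of Trpv3 therefore describe the cells that passed the filter.

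Trpv4, the channel for warmth and cell swelling, ran the other way and was higher in cycling and aberrant basal KCs. Proliferating KCs held 10.6 and 11.3 CPM and aberrant KCs 9.67 and 12.1, against 2.00 and 4.31 in basal 1 and 2.31 and 2.56 in basal 2. Transition KCs held 2.40 and 0.694 CPM and differentiated KCs 2.67 and 2.90. Both mice of the first 2 stages lay above all values of the other 4. Among those 4, both mice of differentiated KCs lay just above both of basal 2 and of transition KCs. The other pairs overlap. Against resting basal KCs the log2 fold change was 1.80 ± 0.27 in proliferating KCs (adjusted p = 0.000103) and 1.80 ± 0.27 in aberrant KCs (adjusted p = 0.000244). No step between resting basal, transition and differentiated KCs was called (adjusted p = 0.110 to 0.746). Levels in resting basal, transition and differentiated KCs lie below the 5.40 and 5.24 CPM of melanocyte-like cells, which serve as a background for free RNA. Without predicted doublets melanocyte-like cells held 1.06 and 2.92 CPM, below all 4 of these stages in KO mouse 1 and below basal 1 alone in KO mouse 2.

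Hair follicle markers moved with Trpv4 in the basal layer. The summed level of the 11 hair follicle markers was 3849 and 3987 CPM in aberrant KCs and 3258 and 3106 CPM in proliferating KCs, against 889 to 1299 CPM in the resting basal sums. Without Krt17, the largest of them there, it was 1297 and 1309 in aberrant and 1312 and 1187 in proliferating KCs, against 722 and 724 in basal 1 and 949 and 874 in basal 2. All 11 markers were detected in these 4 sums except Shh, which was at 0 in the aberrant KCs of KO mouse 1. Transition KCs also reached 2886 and 2603 CPM, of which Krt17 made up 2529 and 2278, and there Trpv4 was low. The part of follicle transcripts in the Trpv4 difference was not tested. Within the cells assigned to the IFE, a cluster that took no stage name, led by Col14a1, Tbx1 and Cenpa, held Trpv4 at 26.6 and 26.9 CPM, above every named stage in both mice.

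In terminally differentiated KCs Trpv4 was at 9.68 and 14.3 CPM from 3 and 8 UMIs, which exceeded differentiated KCs by 1.80 ± 0.62 on the log2 scale (adjusted p = 0.0356). With cells kept only under 5% mitochondrial UMIs this difference was 1.25 (adjusted p = 0.258). The dividing-cell markers of those sums reached 2330 and 2206 CPM, against 258 and 305 in differentiated KCs. The hair follicle markers without Krt17 reached 1265 and 1128 CPM there, against 113 and 148 in differentiated KCs. The part of either list in the result was not tested.

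Trpv6 and Piezo1 showed no called difference between IFE stages by edgeR or DESeq2. At an unadjusted p under 0.05 in edgeR, 1 of their 14 tests passed, that of Piezo1 in terminally differentiated KCs. Trpv6, the calcium-selective member, was at 2.00 and 2.42 CPM in basal 1, 1.89 and 0.975 in basal 2, 0.959 and 2.60 in transition and 1.74 and 3.16 in aberrant KCs. Both mice of basal 1 lay just above both of basal 2, and the other pairs overlap. In differentiated KCs Trpv6 was at 0.571 and 0.643 CPM, from 3 and 4 UMIs, lower in both mice than in any of these stages. The difference from resting basal KCs was −1.28 ± 0.62 (adjusted p = 0.0856). Piezo1, the stretch-gated channel, was at 3.77 and 5.25 CPM in basal 1, 7.15 and 4.51 in basal 2, 3.36 and 3.47 in transition and 5.33 and 3.22 in differentiated KCs. Among these stages, both mice of transition KCs lay below both of basal 1 and of basal 2, and the other pairs overlap. Aberrant KCs held 8.43 and 5.93 CPM and proliferating KCs 5.20 and 3.94. Both mice of aberrant KCs lay above both of basal 1, transition, differentiated and proliferating KCs, and overlapped basal 2. Proliferating KCs lay above transition KCs in both mice and overlapped basal 1, basal 2 and differentiated KCs. The difference of Piezo1 between differentiated and resting basal KCs was −0.08 ± 0.29 (adjusted p = 0.834). In terminally differentiated KCs Piezo1 was at 12.9 and 12.5 CPM from 4 and 7 UMIs, above every other stage in both mice, and missed the threshold (1.22 ± 0.55, adjusted p = 0.108).

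**Figure D2:**
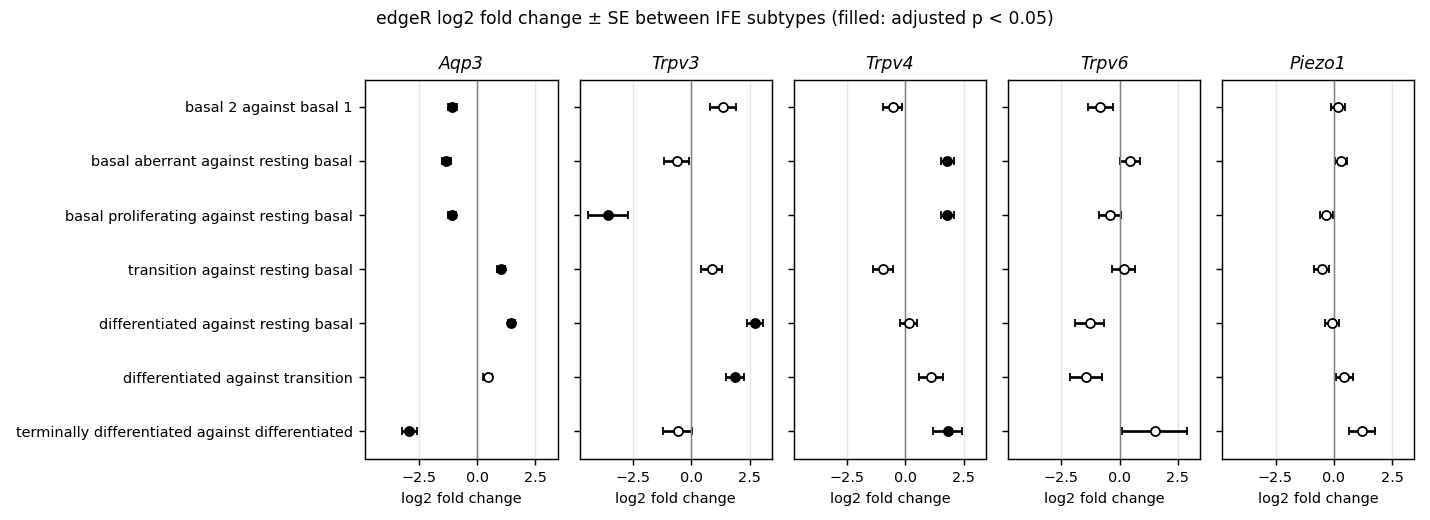
Log2 fold change of each gene in the 7 comparisons of IFE stages, from the edgeR fit, with bars of 1 SE and filled points for called comparisons (adjusted p under 0.05). Aqp3 is called in 6 of the 7, Trpv3 and Trpv4 in 3 each, and Trpv6 and Piezo1 in none.

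A finer order of the IFE cells was made from a score, the mean level of differentiated markers minus that of basal markers, with 1987 and 3237 cells outside the dividing and follicle-led clusters placed in 20 bins of equal size. A bin is a range of a score, not a cell type. Aqp3 was not lowest at the basal end. It was at 183 and 121 CPM in the first bin, was at 66.2 and 59.5 in the bin centred on 72.5% of the cells, and was at 274 and 225 CPM in the last. Trpv4 had the opposite course, at 1.22 and 0 CPM in the first bin, 17.5 and 22.2 in the bin centred on 72.5%, and 3.16 and 2.79 in the last. Trpv3 stayed at or under 4.25 CPM until the last bin, where it was at 8.05 and 10.3 CPM. Over the bins Trpv6 ranged from 0 to 5.76 CPM and Piezo1 from 2.61 to 11.1 CPM, and their highest bins differed between the mice.

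**Figure D3:**
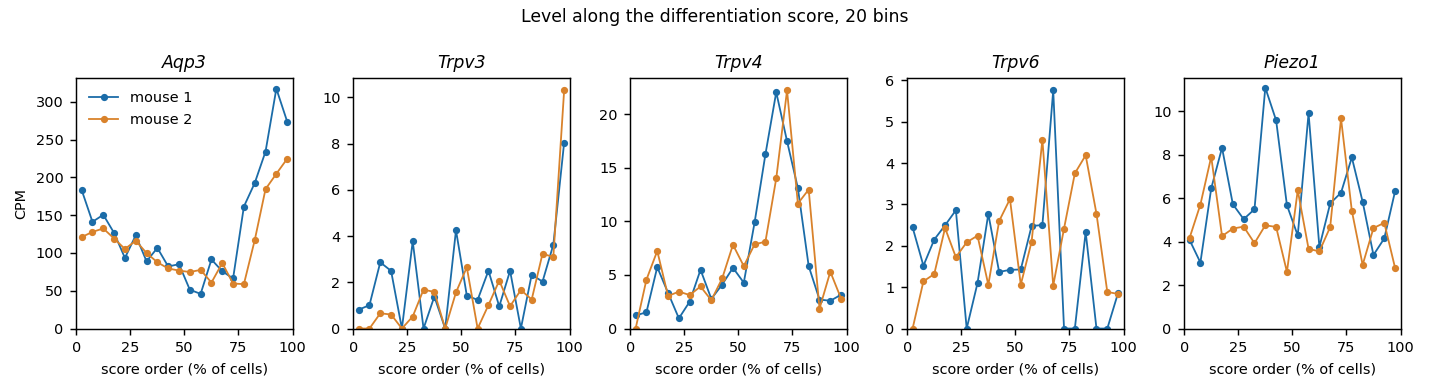
Level (CPM) of the genes along the differentiation score, in 20 bins of equal numbers of cells from basal to differentiated, with 1 line per KO mouse. Aqp3 dips in the middle of the order where Trpv4 peaks, and Trpv3 reaches 8.05 and 10.3 CPM in the last bin.

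Over the 14 sums of mouse by IFE stage, Aqp3 and Trpv4 had a Pearson r of −0.835 (log2 of CPM with 10 added), Trpv4 and Piezo1 one of 0.61, Piezo1 and Aqp3 one of −0.606, and Trpv3 and Aqp3 one of 0.294. The sums share 2 animals and differ in depth, so these are descriptions. Among the genes with the profile most like Aqp3 were Anxa7, Lad1, Abhd14b and Plbd1 (r = 0.950 to 0.962). Those most like Trpv3 were Shb, Tom1, Pdlim2, Pvrl2 and Slc10a6 (r = 0.952 to 0.968), and those most like Trpv4 were Rhof, Mgme1, Nap1l1, Ncapg2 and Stxbp6 (r = 0.937 to 0.949). For Piezo1 they were Arhgap29, Trip12, Furin, Spred3 and Ttc12 (r = 0.904 to 0.938). For Trpv6, whose counts are the smallest, Celf4, Mdc1, Aoc2, Cwc22 and Zcchc9 reached only 0.810 to 0.848.

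Outside the IFE, each other class of cells was compared with basal IFE KCs in a second fit of 13994 genes, and 25 of 45 tests of the 5 genes passed. Hair follicle-like cells had 3 of the 5 genes called beside 37.5% of all genes, dividing hair follicle-like cells 4 beside 42.1%, inner root sheath and hair shaft-like cells 3 beside 50.2%, and upper follicle-like cells 2 beside 42.7%. Sebaceous-like cells had 4 called beside 48.7%, melanocyte-like cells 5 beside 51.6%, Langerhans-like cells 2 beside 51.1%, T cell-like cells 1 beside 33.0% and dermal-like cells 1 beside 25.7%. Merkel-like cells (36 in all) were too few for a sum. The hair follicle-like class holds 2 clusters. One, of 1117 cells, is led by Shh, Fn1 and Gxylt2. The other, of 1060 cells, is led by Tagln, Igfbp7 and Foxe1, has no hair follicle marker among its 10 leading genes, and took its name from a mean log2 enrichment of 0.022. Its 11 hair follicle markers summed to 3860 and 3463 CPM, against 6466 and 6155 in the cluster led by Shh, while the 5 muscle markers, Tagln among them, summed to 187 and 128 CPM against 0.685 and 1.05. At resolution 1.2 a cluster of 357 cells led by Tagln took the muscle name. Results of the class are therefore also given without the cluster led by Tagln, an alternative chosen after seeing the data.

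**Figure D4:**
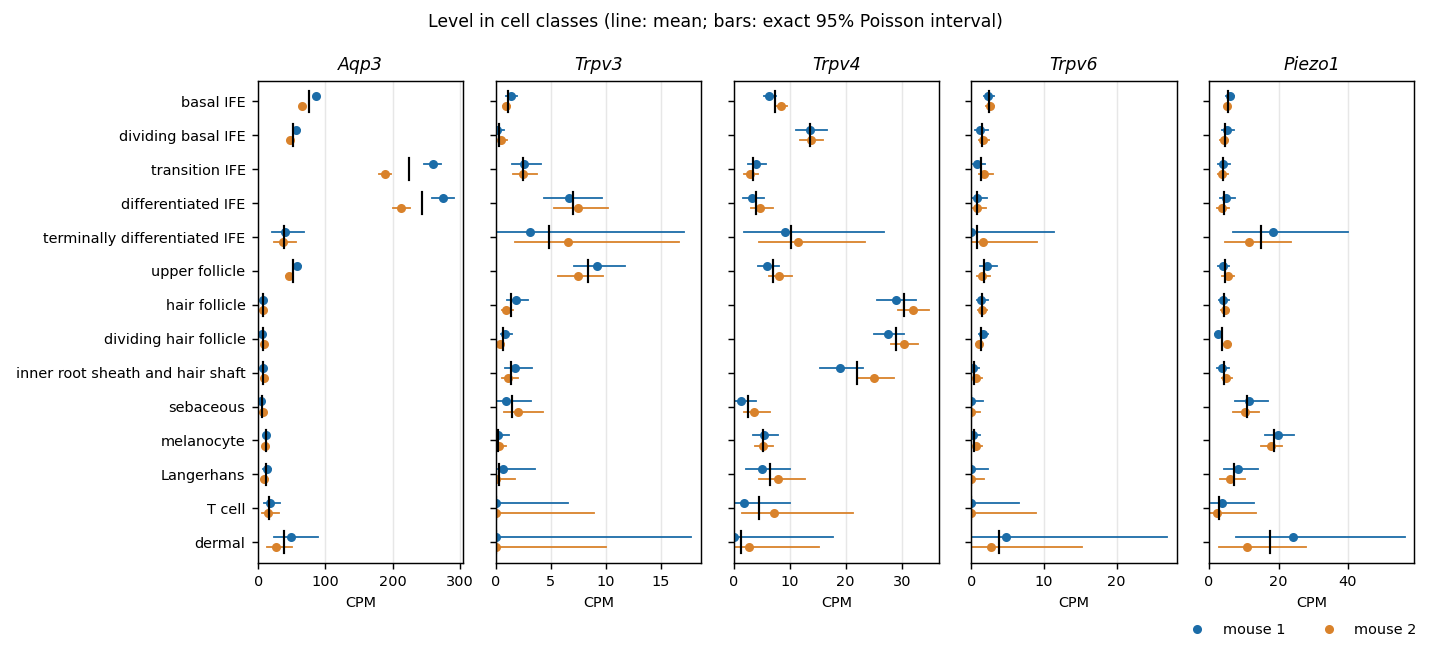
Level of each of the 5 genes (CPM) in the named classes of all kept cells, with 1 point per KO mouse, a line at their mean and bars for the exact 95% Poisson interval of the count. Aqp3 is highest in differentiated and transition IFE cells, Trpv3 in upper follicle-like and differentiated IFE cells, Trpv4 in hair follicle-like cells, and Piezo1 is at 19.9 and 17.8 in melanocyte-like cells.

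Aqp3 was an IFE transcript and low in the follicle. Basal IFE KCs held 86.7 and 65.6 CPM and upper follicle-like cells, which line the follicle mouth, 57.8 and 46.1. Hair follicle-like cells held 7.52 and 7.07 CPM, inner root sheath and hair shaft-like cells 7.35 and 8.34, and sebaceous-like cells 4.47 and 7.25. The last 3 classes overlap and lie at or below the 12.1 and 10.2 CPM of melanocyte-like cells, the range of free RNA, where Krt14 was still at 7.02% and 10.0% of its basal IFE level. Against basal IFE KCs the log2 fold change was −3.54 ± 0.19 in hair follicle-like cells (adjusted p = 4.08e-13) and −3.26 without their cluster led by Tagln, and Aqp3 was lower in all 9 classes tested. The smallest difference was that of upper follicle-like cells, −0.70 ± 0.16 (adjusted p = 0.000842), which was −0.13 (adjusted p = 0.612) with the 5% mitochondrial limit.

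Trpv3 had a second site in the upper follicle. It was at 9.20 and 7.49 CPM in upper follicle-like cells, against 6.65 and 7.45 CPM in differentiated IFE KCs and 1.34 and 0.888 CPM in basal IFE KCs. The lower upper follicle-like value lay just above the higher value of differentiated KCs, a difference that was not tested, and both mice of either class lay above both of basal IFE KCs. The difference from basal IFE KCs was 2.78 ± 0.31 on the log2 scale (adjusted p = 8.89e-08). A Trpv3 UMI was found in 14.9% and 12.0% of upper follicle-like cells, whose median depth was 15300 and 16142 UMIs. In hair follicle-like cells it was at 1.80 and 0.930 CPM, and its difference from basal IFE KCs missed the threshold (0.09, adjusted p = 0.893), as it did without the cluster led by Tagln (0.88, adjusted p = 0.133). Melanocyte-like cells held 3 UMIs in all, a basal IFE level 4.50 times theirs (interval 1.47 to 22.4, adjusted p = 0.0108), and the call was lost under the 5% mitochondrial limit.

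Trpv4 was a follicle transcript. Hair follicle-like cells held 28.9 and 32 CPM, dividing hair follicle-like cells 27.6 and 30.4, and inner root sheath and hair shaft-like cells 19 and 25.1, against 6.39 and 8.50 in basal IFE KCs and 5.95 and 8.15 in upper follicle-like cells. Dividing basal IFE KCs stood between, at 13.6 and 13.8 CPM. The highest level, 35.6 and 44.8 CPM, was that of a cluster without a name led by Sfrp1, Tbx1 and Adamts19. The hair follicle-like and dividing hair follicle-like values overlap, and in both mice all 3 follicle classes exceeded the basal IFE. Within the hair follicle-like class the cluster led by Shh held 17.8 and 21.9 CPM and the cluster led by Tagln 38.5 and 41.1. The log2 fold change against basal IFE KCs was 1.85 ± 0.17 in hair follicle-like cells (adjusted p = 3.55e-09), or 1.25 without the cluster led by Tagln (adjusted p = 1.48e-05), 1.81 ± 0.17 in dividing hair follicle-like cells (adjusted p = 2.59e-09) and 1.5 ± 0.18 in inner root sheath and hair shaft-like cells (adjusted p = 2.02e-07). A Trpv4 UMI was found in 26.7% and 27.9% of hair follicle-like cells and in 3.89% and 4.81% of melanocyte-like cells, and after thinning to 3000 UMIs in 8.91% and 9.41% against 0.943% and 0.838%.

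Against the basal IFE class, Trpv4 was lower in sebaceous-like and melanocyte-like cells. Langerhans-like cells, at 5.06 and 7.90 CPM, overlapped that class and were not called. Sebaceous-like cells held 1.34 and 3.63 CPM (−1.45 ± 0.39 against basal IFE KCs, adjusted p = 0.00284). Melanocyte-like cells held 5.40 and 5.24 CPM (−0.61 ± 0.24, adjusted p = 0.0375), and 1.06 and 2.92 CPM without predicted doublets, which moved the difference to −1.80 (adjusted p = 8.68e-05). At clustering resolution 1.2 the call was lost (−0.24, adjusted p = 0.469). The basal IFE class of 5768 cells is wider than the resting basal subtypes, where Trpv4 was at 2.00 and 4.31 CPM (basal 1) and 2.31 and 2.56 (basal 2). With doublets kept, melanocyte-like cells lay above these subtypes in both mice, and sebaceous-like cells overlapped them.

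Trpv6 was an IFE and follicle transcript at low level. Basal IFE KCs held 2.35 and 2.5 CPM, hair follicle-like cells 1.38 and 1.49, and dividing hair follicle-like cells 1.58 and 1.08, lower in both mice. The log2 fold change was −0.91 ± 0.32 in hair follicle-like cells (adjusted p = 0.0294) and −1.02 ± 0.30 in dividing hair follicle-like cells (adjusted p = 0.00903), the first of which was lost in DESeq2 (adjusted p = 0.0526), at clustering resolution 1.2 (−0.039, adjusted p = 0.954) and without the cluster led by Tagln (−0.93, adjusted p = 0.0788). It fell further in inner root sheath and hair shaft-like cells, at 0.193 and 0.650 CPM (−2.37 ± 0.48, adjusted p = 0.000234), and in melanocyte-like cells, at 0.216 and 0.609 CPM (−2.45 ± 0.50, adjusted p = 0.000241). No Trpv6 UMI was counted in sebaceous-like or Langerhans-like cells. Taking 3 counts over both mice as the limit that a count of 0 allows, Trpv6 was at least 4.30-fold lower in sebaceous-like cells (adjusted p = 0.000341) and at least 3.05-fold lower in Langerhans-like cells (adjusted p = 0.00246) than in basal IFE KCs. T cell-like cells also had none, but their limit lies above the basal IFE level.

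Piezo1 was higher in melanocyte-like and sebaceous-like cells than in basal IFE KCs. Melanocyte-like cells held 19.9 and 17.8 CPM and dermal-like cells 24.1 and 10.9, against 5.90 and 5.27 CPM in basal IFE KCs. Sebaceous-like cells held 11.6 and 10.2 CPM, Langerhans-like cells 8.22 and 6.04, and terminally differentiated IFE KCs, which are KCs, 18.4 and 11.4 from 6 and 7 UMIs. Both mice of the melanocyte-like and sebaceous-like classes lay above both of the basal IFE, while the dermal-like values spread more than 2-fold between mice. Piezo1 rose by 1.65 ± 0.22 on the log2 scale in melanocyte-like cells (adjusted p = 4.51e-07), with 20.4 and 19.2 CPM left after removal of predicted doublets. In sebaceous-like cells the difference was 1.02 ± 0.29 (adjusted p = 0.00451), and 0.62 (adjusted p = 0.350) with the 5% mitochondrial limit. Dermal-like cells missed the threshold (1.05 ± 0.60, adjusted p = 0.228), and so did Langerhans-like cells (0.58, adjusted p = 0.198). Dividing hair follicle-like cells held 2.44 CPM in KO mouse 1 and 5.27 in KO mouse 2, so that Piezo1 lay below the basal IFE in KO mouse 1 and at its level in KO mouse 2. The difference was −0.60 ± 0.23 (adjusted p = 0.0346), with −1.41 without KO mouse 2 and −0.12 without KO mouse 1. DESeq2 did not call it (adjusted p = 0.0677), nor did the 5% mitochondrial limit (−0.58, adjusted p = 0.236).

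The relatives and partners of the 5 genes were taken from lists. Of all genes tested, 28.5% were called in transition and 59.7% in differentiated against resting basal KCs, and 31.2% in differentiated against transition KCs. The share was 32.6% in terminally differentiated, 33.2% in proliferating and 16.4% in aberrant KCs, and 10.2% in basal 2 against basal 1. The counts of each list stand beside these shares, and no list was tested as a set. Of 10 other aquaporins, none passed the filter on low counts among IFE stages, so that Aqp3 was the only aquaporin tested there. Of 23 other TRP channels, 5 were tested. In differentiated against resting basal KCs, 1 of these was higher and 2 lower, with a list median of 0.27 on the log2 scale beside −0.02 over all genes. Trpm4, a calcium-activated cation channel, rose by 0.84 ± 0.17 (adjusted p = 0.000527), while Pkd2, the polycystin channel, changed by −0.69 and Trpm7, a magnesium-permeable channel with a kinase domain, by −0.64. The same Pkd2 (−0.62) and Trpm7 (−0.25) were already lower in transition KCs, where 2 of 5 were lower, and Trpm7 (−0.39) was lower again in differentiated against transition KCs. In aberrant KCs 1 of 5 was higher, Trpm1 (1.53), a channel best known from melanocytes and retina. Melanocyte-like cells held far more Trpm1 than basal IFE KCs, as given below. The part of melanocyte RNA in the aberrant difference was not tested.

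Of 19 other channels gated by stretch or osmotic swelling, 12 were tested. In differentiated against resting basal KCs 6 were higher and 2 lower (list median 0.58), where 30.3% of all genes were higher and 29.3% lower. Scnn1a, the α subunit of the epithelial sodium channel, was at 9.51 and 10.2 normalized CPM in differentiated KCs, against 0.696 and 2.00 in basal 1 (log2 fold change 2.95 ± 0.34, adjusted p = 2.04e-06). Lrrc8e and Lrrc8d, subunits of the volume-regulated anion channel, moved apart, by 1.93 ± 0.21 and −1.61 ± 0.19. Kcnk2, a stretch-gated potassium channel, changed by −1.60. In transition KCs 2 were higher and 3 lower, with Lrrc8d at −1.17, Lrrc8e at 1.02, Kcnk2 at −0.60 and Tmem63b, an osmotically gated cation channel, at −0.46. From transition to differentiated KCs 3 were higher and 1 lower, with Scnn1a at 3.34, Kcnk2 at −1.001, Lrrc8e at 0.91 and Tmem63b at 0.30.

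The other subunits of the sodium channel had their highest called differences where Trpv4 was also high. Scnn1b, the β subunit, was at 12.5 and 10.7 normalized CPM in aberrant KCs and 11.4 and 7.51 in proliferating KCs, against 0.232 and 1.14 in basal 1. Its log2 fold change against resting basal KCs was 3.99 ± 0.33 in aberrant KCs and 3.67 ± 0.35 in proliferating KCs. Scnn1g, the γ subunit, rose by 3.08 and 2.62, and Lrrc8c by 2.76 and 2.55. Scnn1a went down in proliferating KCs (−2.00), so that the subunits of this channel did not move together. In all, 3 of the 12 were higher and 4 lower in proliferating KCs, beside 33.2% of all genes called. In aberrant KCs 3 were higher and 1 lower, beside 16.4% of all genes, and Kcnk2 was at −0.43. In terminally differentiated against differentiated KCs 3 were higher and 1 lower, with Scnn1b at 3.22, Lrrc8c at 2.80, Lrrc8d at 1.69 and Lrrc8b at −1.13. In basal 2 against basal 1 only Lrrc8d was called (0.58).

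Of 20 partners and effectors of the 5 channels, 15 were tested. In transition against resting basal KCs 6 were higher and 4 lower (list median 0.18). Tgfa, the EGF receptor ligand tied to TRPV3, rose by 2.53 ± 0.51 (adjusted p = 0.00158), Vdr, the vitamin D receptor, by 1.33 ± 0.26, and Gk, the glycerol kinase that acts on glycerol taken up through AQP3, by 1.24 ± 0.27. Pld2, a phospholipase D that partners AQP3, changed by −0.92. In differentiated against resting basal KCs 7 were higher and 5 lower (list median 0.55), with Tgfa at 2.46, Gk at 2.14, Pld2 at −1.55 and Vdr at 0.99. Gk was at 17.4 and 13.4 normalized CPM in differentiated KCs, against 2.32 and 4.43 in basal 1 and 8.72 and 7.82 in transition KCs. Tgfa was at 3.4 and 2.6 normalized CPM in differentiated KCs and 0.696 and 1.00 in basal 1. Over all kept cells, without TMM scaling, it was at 7.34 and 5.52 CPM, so that both of these IFE stages held Tgfa at a low level.

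At the other steps the partners split. From transition to differentiated KCs 2 were higher, Gk (0.89) and Pacsin3 (0.47), a membrane-bending protein that binds TRPV4, and 2 were lower, S100a10 (−0.47), which binds TRPV6, and Ctnnb1 (−0.25), the β-catenin of cell junctions. In terminally differentiated KCs 3 were higher and 5 lower, with Pld2 at 2.82, Tgfa at 2.08, Anxa2, the annexin partner of S100A10, at −1.53 and Pacsin3 at −1.30. In proliferating KCs 3 were lower, Egfr (−0.66), the calcium pump gene Atp2b4 (−0.55) and Anxa2 (−0.33). In aberrant KCs only Atp2b4 was called (−0.60). In basal 2 against basal 1, Ctnnb1 was higher (0.79) and 4 were lower, of which the largest were Pld2 (−0.74), S100a10 (−0.60) and Anxa2 (−0.45).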

How the data were processed

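The epidermis of 2 Chrm3 KO mice was profiled by single-cell RNA sequencing, with 1 library per mouse. The authors deposited UMI counts per gene and barcode, neither normalized nor filtered on cells, which per the submitters' processing notes were made with Cell Ranger 3.0.2 against mm10. The labels and the study's methods name different versions of the 10x chemistry. KO mouse 1 had 10816 barcodes with 109756784 UMIs and KO mouse 2 had 15867 with 166441732. Whether reads were counted by strand is not given in the sources used here.

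Barcodes passed with 900 to 7700 detected genes and a mitochondrial share of UMIs under 10% (73.0% did). They were log-normalized, integrated over the mice with 2000 variable genes and 30 dimensions, and clustered at resolution 0.8 in Seurat 5.3.0 (R 4.3.3). IFE clusters were clustered again. Clusters were named from marker lists, with 10 CPM added before log2. Among IFE cells, a name resting on only 1 marker among the 10 leading genes also needed a mean log2 enrichment of 0.75. Names by mean enrichment alone were given only among all cells, where they had no such limit. The 5 genes and their relatives entered neither the variable genes nor the naming. Names were rebuilt from markers and may differ from the authors' own. Scrublet (scanpy 1.11.5, expected rate 8%) scored 164 (2.16%) and 500 (4.21%) cells as doublets, which were kept in the main results. UMIs were summed per mouse and group of at least 20 cells in each mouse. edgeR 4.0.16 (TMM, filterByExpr, quasi-likelihood test, Benjamini-Hochberg over all genes) was fitted to 14 sums of IFE subtypes (11646 genes, 7 residual degrees of freedom, biological coefficient of variation 0.0953) and to 28 sums of classes (13994 genes, 14 degrees of freedom, 0.0936). CPM per mouse are a gene's UMIs scaled by all UMIs of the same group and mouse, and normalized CPM are scaled by TMM as well. Intervals are exact at 95% and cover counting error only. The tests were tested on simulated data.

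Each mouse gave 1 sum to every group, so that its number pairs sums across groups. The deviations of the mice correlated across genes at r from 0.011 to 0.327 between IFE subtypes (21 pairs, median 0.144) and between classes at r from -0.007 to 0.336 (91 pairs, median 0.059). The alternatives were the mouse as a block, DESeq2 1.42.0, and size factors by relative log expression in edgeR in place of TMM. Further alternatives were no filter on low counts, removal of doublets, a 5% mitochondrial limit, resolution 1.2 and leaving out each mouse. Hair follicle-like cells without the cluster led by Tagln were added after seeing the data. The genes named besides the 5 are the called relatives and partners with the largest log2 fold change between IFE stages, at most 4 per list, and the 5 genes with the most similar profile. Some items that this rule names are not reported here. The members, lists and tests were chosen with earlier results of these data known. Promoter sequences came from RefSeq, with all 5 genes matched.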

Additional observations from a re-analysis of the deposited data

Results flagged for a closer look

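The values below come from barcodes that no comparison used, since they failed the filter on cells. Apart from a value marked below, each exceeds what a count of 0 would allow, taken as 3 counts. Among barcodes at or over 10% mitochondrial UMIs, 2777 in KO mouse 1 and 3315 in KO mouse 2, Trpv3 was at 24.9 and 17.4 CPM, against 1.99 and 1.42 in the kept cells. The Trpv3 level was 11 and 10.6 CPM in barcodes with 10 to 20% mitochondrial UMIs, 31.1 and 22.0 CPM at 20 to 50%, and 56.3 and 13.3 CPM at 50% or more. The 13.3 CPM of KO mouse 2 came from only 2 UMIs and does not exceed that limit. In all barcodes at or over 10%, Trpv4 was at 18.0 and 16.7 CPM, against 14.8 and 17.2 in the kept cells. It was thus above the kept cells in KO mouse 1 and below them in KO mouse 2. These totals include mitochondrial UMIs. Counted without them, Trpv4 was at 25.1 and 22.2 CPM, against 15.6 and 18.2 in the kept cells, above them in both mice. The values that follow again include mitochondrial UMIs in the total. Trpv6 was at 3.70 and 2.5 CPM (kept cells 1.58 and 1.65), Piezo1 at 14.6 and 12.0 CPM (5.34 and 5.78), and Aqp3 at 126 and 118 CPM (60.8 and 46.1).

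The suprabasal keratin Krt10 was at 12546 and 16191 CPM in the same barcodes, against 2591 and 2276 in the kept cells, and the envelope gene Lor at 1135 and 1336 against 196 and 178. The basal keratin Krt5 was at 1431 and 1664 CPM, against 2959 and 3340. The part of cell stage and of RNA loss in the levels of the 5 genes there was not tested.

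Barcodes with too few genes but a mitochondrial share under the limit were 394 and 630. In them Piezo1 was at 20.003 and 11.7 CPM, from 9 and 7 UMIs, and Aqp3 at 37.8 and 50.1 CPM, from 17 and 30 UMIs. Trpv4 passed the limit in KO mouse 2 alone, at 23.4 CPM from 14 UMIs.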

How the results depend on the processing

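Each of the 80 tests of the 5 genes was recomputed under every alternative that could give it. Size factors kept the direction and the side of the threshold of all 80, DESeq2 of 78, no filter of 78, the mouse as replicate block of 78 and removal of doublets of 79. Resolution 1.2 gave 65, of which 59 were unchanged in this sense, and named no differentiated cluster for the other 15. The 5% mitochondrial limit gave 42, of which 34 were unchanged, since basal 1 had too few cells or a gene failed the filter for the other 38. The causes of the changes below were not tested.

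With the replicate block, Aqp3 in differentiated against transition KCs (0.45) and Trpv3 in dividing hair follicle-like cells (-0.999) passed the threshold, and it changed no other call of the 5 genes. Both also passed with no filter (0.46 and -1.0), Aqp3 at the 5% limit (0.59) and Trpv3 at resolution 1.2 (-1.18). DESeq2 lost Trpv6 in hair follicle-like cells (-0.88) and Piezo1 in dividing hair follicle-like cells (-0.60). The 5% limit lost Trpv4 in terminally differentiated KCs (1.25), Piezo1 in dividing hair follicle-like (-0.58) and sebaceous-like cells (0.62), Aqp3 in upper follicle-like cells (-0.13) and Trpv3 in melanocyte-like cells (-1.17), and gained Trpv4 in upper follicle-like cells (-0.89). Resolution 1.2 lost Trpv6 in hair follicle-like (-0.039) and Trpv4 in melanocyte-like cells (-0.24). Without the cluster led by Tagln, an alternative chosen after seeing the data, 3 of the 5 genes were unchanged in this sense in hair follicle-like cells, Trpv6 was lost (-0.93) and Piezo1 gained (-0.79). Uncalled values reversed at resolution 1.2 for Piezo1 in aberrant KCs (-0.007), Trpv3 in hair follicle-like (-0.015) and Trpv4 in upper follicle-like cells (0.34), and for Trpv4 in Langerhans-like cells without doublets (-0.082) and at the 5% limit (-0.35).

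With 1 mouse left out each group is 1 sum, a value with no test. Over the 2 mice, the log2 fold change ranged from 1.46 to 1.47 for Aqp3 in differentiated against resting basal KCs and from -5.45 to -2.90 for Trpv3 in proliferating KCs, and from 1.72 to 2.03 for Trpv4 in aberrant KCs. Against differentiated KCs, terminally differentiated KCs ranged from -1.47 to -0.24 for Trpv3, -4.46 to 2.15 for Trpv6 and -2.97 to -2.75 for Aqp3. Against basal IFE KCs the ranges were -0.93 to -0.90 for Trpv6 in hair follicle-like cells, -0.25 to -0.21 for Trpv4 in upper follicle-like cells, and 0.22 to 0.30 for Trpv3, 1.49 to 1.49 for Trpv4 and -3.54 to -1.99 for Trpv6 in inner root sheath and hair shaft-like cells. They were -2.13 to -1.20 for Trpv4 in sebaceous-like, -3.43 to -2.11 for Trpv6 in melanocyte-like, -6.15 to -0.85 for Trpv3 and -2.56 to -2.54 for Aqp3 in Langerhans-like, -6.15 to -6.10 for Trpv3 and -2.30 to -2.23 for Aqp3 in T cell-like, and -6.15 to -6.10 for Trpv3 and -8.33 to -2.05 for Trpv4 in dermal-like cells. Where a group then has no UMI, the fitted value depends on the prior count. Piezo1 in dividing hair follicle-like cells ranged from -1.41 without KO mouse 2 to -0.12 without KO mouse 1. The lowest values of Trpv3 in proliferating KCs, Trpv4 in sebaceous-like and dermal-like cells, and Trpv6 in inner root sheath and hair shaft-like and melanocyte-like cells were also those without KO mouse 2.

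Over all genes, the 5% limit lowered the number of calls from 3634 to 1689 in differentiated against transition KCs, 3798 to 2198 in terminally differentiated KCs, 5252 to 2647 in hair follicle-like, 5885 to 2992 in dividing hair follicle-like, 5978 to 3871 in upper follicle-like, 6813 to 4256 in sebaceous-like and 7221 to 4535 in melanocyte-like cells. The replicate block raised it from 1193 to 2418 in basal 2 against basal 1 and from 1905 to 3248 in aberrant KCs, for which resolution 1.2 gave 3233. Depth limits Trpv6, Trpv3 outside differentiated and upper follicle-like cells, and all 5 genes in terminally differentiated KCs.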

Other observations

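In the comparison of classes with basal IFE KCs, 11 of the 23 other TRP channels passed the filter, and the genes named here were chosen after their values were seen. In melanocyte-like cells 7 were higher and 1 lower, where 27.9% of all genes were higher and 23.7% lower. Trpm1, a channel of melanocytes and retina, was at 287 and 335 normalized CPM there, against 6.69 and 5.39 in basal IFE KCs (log2 fold change 5.70 ± 0.17, adjusted p = 1.43e-18 in edgeR), and Trpc1 was higher by 4.13 ± 0.34. Trpv2, a TRPV channel known from immune cells, was at 58.1 and 54.2 normalized CPM in Langerhans-like cells and 38.0 and 41.2 in T cell-like cells, against 0.197 and 0.365 in basal IFE KCs. The differences were 7.47 ± 0.34 (adjusted p = 5.30e-15) and 6.96 ± 0.46 (adjusted p = 2.07e-11). Langerhans-like and T cell-like cells thus had Trpv2 where Trpv6 was counted at 0.

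Aquaporins other than Aqp3 were found outside the KCs at low level. Aqp1 was at 1.85 and 1.79 normalized CPM in melanocyte-like cells, against 0.148 and 0.140 in basal IFE KCs (3.52 ± 0.55, adjusted p = 2.53e-05).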
